A study of Mus musculus with 6 samples.

Results

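Transcripts of the mitochondrial respiratory chain were examined in the lungs of mice with an ectopically activated human SRY gene. The members were every probe on the array whose gene symbol starts with Nduf, Uqcr, Cox4 to Cox8 or Atp5, or is Sdha, Sdhb, Sdhc or Sdhd. These were 95 of the 25697 probes and 77 of the 18138 gene symbols in the table. A probe was tested when a minimum of 3 arrays out of 6 detected it, that is, when its signal exceeded that of the negative controls at a detection p under 0.05. Of the 95 probes, 79 passed, for 66 genes, and 77 of those 79 were detected on all 6 arrays. The other 16 probes did not pass, which left 11 genes without a tested probe.

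All mice were male, of strain FVB (FVB/N in the methods), and were sampled at postnatal day 6. The transgene, placed as a single copy at the H11 locus, has a ubiquitous CAG promoter that drives a red fluorescent protein until Cre recombinase removes that segment and brings FLAG-tagged human SRY and EGFP under the promoter. The hSRY-ON group (n = 3) had the recombined transgene, after Cre was supplied in the egg by a Ddx4-Cre mother, and did not itself carry Ddx4-Cre. The hSRY-OFF group (n = 3) is labelled as not recombined, although the study also uses the word controls for littermates without the transgene. Whole lung RNA of 1 mouse was hybridised to each Illumina MouseRef-8 array. Because SRY was driven in all tissues and hSRY-ON pups grow poorly and die young, an effect inside lung cells and an effect of the state of the animal cannot be told apart here.

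The respiratory chain carries electrons from NADH and succinate to oxygen through complexes I to IV of the inner mitochondrial membrane, and ATP synthase, complex V, uses the proton gradient that this builds to make ATP. Most subunits are encoded in the nucleus, and their transcripts are abundant in nearly all cells. Several subunits of complex IV also have isoforms restricted to muscle, testis or lung, which replace the general form. In the lung, this machinery serves, among others, the surfactant-producing alveolar type II cells, which are rich in mitochondria.

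Few transcripts of the chain differed between the groups. Of the 79 tested probes, 5 (6.33%) passed an adjusted p of 0.05 (limma, Benjamini-Hochberg over all 13841 tested probes), where 26.9% of all tested probes did. In hSRY-ON lungs 2 probes were higher, Cox6b2 and Ndufa6, against a background of 13.6%, and 3 were lower, Cox4i2, Atp5o and Ndufc1, against 13.3%. Of these, Cox4i2 alone changed by 2-fold or more, a size that 9.7% of all tested probes reached with a call. Values are normalized log2 intensities throughout, so a difference of 1 is a 2-fold change, and the level of a probe is not comparable with that of another.

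The promoters of 4 of the 5 genes are shown because their transcripts moved in different directions. For the remaining gene, Cox4i2, no promoter sequence was at hand, so whether it holds the motif below is not known here. The NRF1 core (GCGCA, then any base, then GCGC, on either strand) is a motif long known from genes of oxidative phosphorylation. It is in capitals below where present. Each sequence runs from 100 bases before to 50 bases after the annotated start, 5′ to 3′ on the transcribed strand, from RefSeq (GRCm38.p6, all on the minus strand). They lie at chr16:91931581-91931730 for Atp5o, chr15:82354242-82354391 for Ndufa6, chr7:4753045-4753194 for Cox6b2 and chr3:51408906-51409055 for Ndufc1.
Atp5o: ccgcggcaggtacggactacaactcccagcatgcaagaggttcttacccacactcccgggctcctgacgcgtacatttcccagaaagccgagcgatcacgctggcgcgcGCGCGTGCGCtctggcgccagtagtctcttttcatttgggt
Ndufa6: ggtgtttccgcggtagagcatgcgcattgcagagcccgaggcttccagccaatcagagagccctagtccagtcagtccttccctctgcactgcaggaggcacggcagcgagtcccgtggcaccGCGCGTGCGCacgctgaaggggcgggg
Cox6b2: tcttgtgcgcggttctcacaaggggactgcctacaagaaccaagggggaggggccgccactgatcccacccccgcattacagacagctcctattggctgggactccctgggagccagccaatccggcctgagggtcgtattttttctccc
Ndufc1: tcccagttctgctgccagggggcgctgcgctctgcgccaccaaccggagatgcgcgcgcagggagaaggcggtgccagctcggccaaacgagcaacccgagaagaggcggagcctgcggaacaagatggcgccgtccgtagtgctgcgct
The motif began at base 10 after the start in Atp5o, which was lower in hSRY-ON, and at base 24 in Ndufa6, which was higher, with the same letters in both. Cox6b2 and Ndufc1 held none in the full 300-base window, which reaches 250 bases before the start. A window was at hand for 63 of the 77 genes, and 14 of them (22.2%) held the NRF1 core, as did 5.19% of all 27025 genes with a window. The short ETS core GGAAG, which matches many sequences, was held by 74.6% of the chain genes with a window and by 73.9% of all such genes. Among tested probes, the 13 from genes with the NRF1 core had a median change of -0.14, with 1 called higher and 1 lower, and the 53 from genes with a window that lacked it had a median of -0.08, also with 1 called higher and 1 lower. These counts do not set the groups of genes apart. A match describes the letters and does not show binding.

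Across the chain, 56 of the 79 probes had a change below 0 and 23 above 0, with a median of -0.12 against -0.03 for all probes, but with each array scaled to its median in place of quantile normalization the median of the chain was 0.02. It was also nearer to 0 (-0.04) without hSRY-ON replicate 2. The sign of the shared shift therefore depended on the scaling. The changes ran from -1.28 to 0.94, and the middle of the distribution from -0.25 to 0.07 (interquartile range). The sizes were small as well. The median absolute change was 0.18 for the chain and 0.32 for all probes, and the 90th percentile was 0.54 against 1.01. Among the 978 probes at or above the median level of the chain (11.94), 23.3% were called, and 2 of the 40 chain probes in this range were. Below it 27.2% of all probes and 3 of the 39 chain probes were. At or above that level the median absolute change was 0.13 for the chain and 0.22 for all probes. Below it the values were 0.26 and 0.33.

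**Figure D1:**
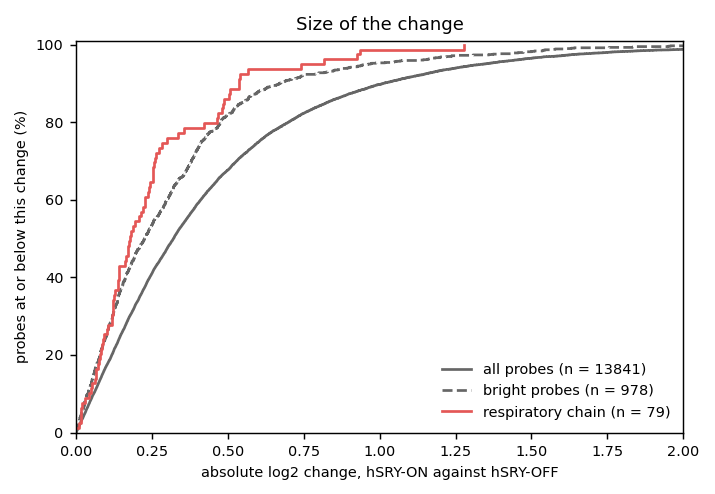
Cumulative share of probes (vertical axis, %) against the absolute log2 change between hSRY-ON and hSRY-OFF lungs (horizontal axis, cut at 2) for the 79 respiratory chain probes (red), all 13841 tested probes (solid grey) and the 978 probes at least as bright as the median chain probe (dashed). The red line runs above the solid grey line over most of the plotted range, with medians of 0.18 and 0.32.

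A missed threshold does not show that a transcript was equal in both groups, so the intervals matter. For 66 of the 79 probes the 95% interval of the change lay within 2-fold in either direction, and for 40 it lay within 0.5 on the log2 scale. The widest intervals together spanned -1.96 (Cox7a2) to 1.49 (Ndufaf1). The median standard error was 0.128 for the chain and 0.161 for all probes. In 25 of the 79 probes (31.6%) the values of the groups did not overlap, 19 of them lower in hSRY-ON, where 46.6% of all tested probes did not overlap. Before adjustment, 10 chain probes had a p under 0.05, as did 40.9% of all probes. The spread was larger in hSRY-ON for 62 of 79 probes, with a median SD of 0.147 against 0.087 in hSRY-OFF. That share (78.5%) was near the 73.7% of all probes, whose median SDs were 0.223 and 0.130.

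**Figure D2:**
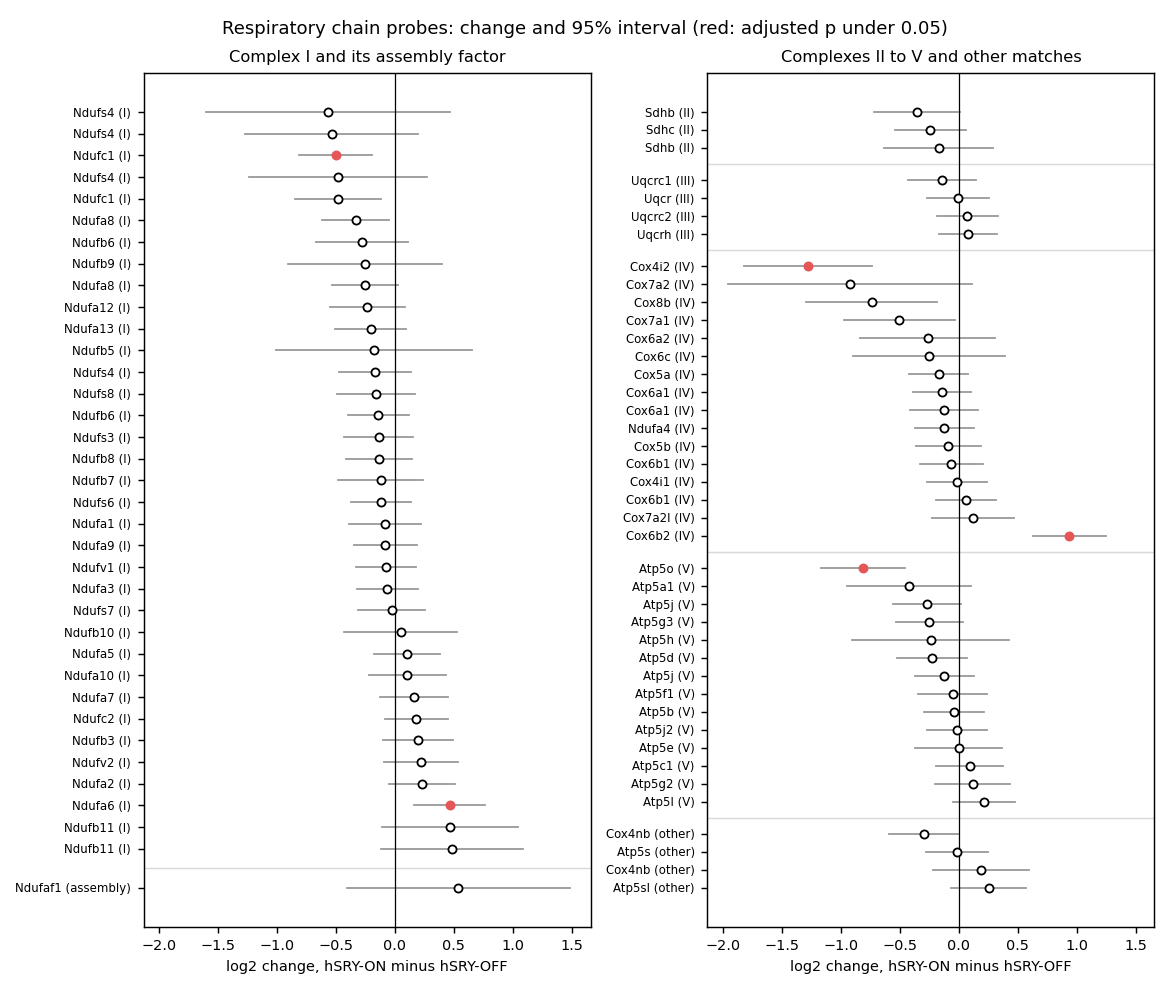
Log2 change from hSRY-OFF to hSRY-ON (horizontal axis) of 77 of the 79 tested probes, each with its 95% interval, ordered by size within complexes I to V, with the complex in brackets. The 5 red points are the probes called at an adjusted p of 0.05 (limma), from Cox4i2 at -1.28 to Cox6b2 at 0.94. Most points lie left of 0, a side that the median of the chain left (0.02) when arrays were scaled to their median.

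Lung tissue was recognisable on every array. All 16 probes for 11 markers of lung epithelium were detected, with a summed linear level of 150634 to 157542 in hSRY-OFF and 166461 to 175422 in hSRY-ON. Of the macrophage markers, 4 of 9 probes (44.4%) were called higher and none lower, against 13.6% and 13.3% of all tested probes. No probe of Csf1r or Emr1 was called, with changes from -0.26 (Emr1) to 0.41 (Csf1r). The summed level of the macrophage list was 3397 to 3749 in hSRY-OFF and 6541 to 11198 in hSRY-ON. Of 16 probes for 12 hepatocyte genes, 5 were tested, and Alb, Apoc3, Cps1, Fgb, Tat and Ttr were not detected. Ahsg, Apoa1 and both tested Fga probes were detected on no hSRY-OFF array and on all hSRY-ON arrays, so they passed the filter through hSRY-ON alone, which fixed their direction. Trf, the remaining one, was detected on every array and rose by 0.53 (adjusted p = 0.0436, limma). The summed level of the 5 tested probes was 5419 to 5940 in hSRY-OFF and 7641 to 10698 in hSRY-ON. Most of this sum is Trf, which read 12.51, 12.51 and 12.37 in hSRY-OFF and 12.79, 12.91 and 13.29 in hSRY-ON. The rest comes from the probes that passed through hSRY-ON alone, so the sum is no separate result for the list. The part of these differences in the results for the chain was not tested. In whole tissue, fewer cells of a type and less RNA per cell cannot be told apart.

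Complex I, which takes electrons from NADH, had 42 probes for 33 genes, of which 37 probes for 29 genes were tested. A probe each was called higher (Ndufa6) and lower (Ndufc1), and the median change was -0.12. The core subunits described here, which carry electrons through the complex, gave no call. Ndufv1, which binds NADH, lay at 12.30, 12.30 and 12.42 in hSRY-OFF and at 12.23, 12.29 and 12.28 in hSRY-ON. The change was -0.07 with an interval of -0.33 to 0.18. Ndufv2 changed by 0.22 (-0.10 to 0.54), Ndufs3 by -0.14 (-0.43 to 0.16), Ndufs7 by -0.03 (-0.31 to 0.25) and Ndufs8 by -0.16 (-0.49 to 0.17). None of the 5 intervals reached 2-fold.

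Among the 30 accessory probes, Ndufa6 rose. This small subunit belongs to the LYR family and contacts the acyl carrier protein. Its probe read 13.01, 13.18 and 13.02 in the hSRY-OFF lungs and 13.69, 13.50 and 13.40 in the hSRY-ON lungs. All hSRY-ON values lay above all hSRY-OFF values. The change of 0.46 (SE 0.129, 1.38-fold) gave an adjusted p of 0.0372 (limma). The call did not hold when any of the hSRY-OFF arrays was left out (adjusted p up to 0.131), nor on leaving out replicate 1 (0.37, adjusted p = 0.0665) or replicate 2 (0.48, adjusted p = 0.0709) of hSRY-ON.

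Ndufc1, a single-span subunit of the membrane arm, fell on a probe at 12.79, 12.74 and 12.79 in hSRY-OFF and 12.21, 12.11 and 12.48 in hSRY-ON. The hSRY-OFF values were within 0.06 of each other and the hSRY-ON values were all lower. The change was -0.50 (SE 0.132, adjusted p = 0.0307, limma). Its other probe read 10.90, 10.85 and 10.97 against 10.53, 10.13 and 10.62, a change of -0.48 that missed the threshold (adjusted p = 0.0576, limma). The call on the first probe did not hold on leaving out any of the hSRY-OFF arrays or replicate 1 or 2 of hSRY-ON (adjusted p from 0.0522 to 0.106), nor with median scaling. The companion gene Ndufc2 changed by 0.18 and was not called.

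Complex II, which oxidises succinate, had 6 probes for 3 genes, and none of its 3 tested probes was called. Sdhb, the iron-sulfur subunit, changed by -0.17 and -0.36 on its tested probes, and Sdhc, a membrane anchor, by -0.24 (-0.54 to 0.06). Sdhd was detected on 1 hSRY-ON array and was not tested. Complex III, which passes electrons from quinol to cytochrome c, likewise gave no call among 4 probes of 4 genes. The core proteins Uqcrc1 and Uqcrc2 changed by -0.14 and 0.07, and the hinge protein Uqcrh by 0.08. Its values were 13.88, 13.87 and 13.84 in hSRY-OFF and 13.93, 13.94 and 13.95 in hSRY-ON. They did not overlap, yet the interval of -0.17 to 0.32 spanned 0. Uqcrfs1, the Rieske protein, was detected on 1 hSRY-ON array and was not tested.

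Complex IV, cytochrome c oxidase, held the largest changes of the chain in both directions. It had 16 tested probes for 14 genes, of 20 probes for 17 genes, and its median of -0.13 turned to 0.03 with median scaling. Both called probes belonged to tissue-restricted isoforms. Cox4i2 is an isoform of subunit 4 known from lung and linked to the response of the enzyme to oxygen. It read 10.57, 10.91 and 10.38 in hSRY-OFF and 9.36, 8.94 and 9.72 in hSRY-ON lungs. All hSRY-ON arrays lay lower, by at least 0.66 from the nearest hSRY-OFF array. The change was -1.28 (SE 0.230, 2.43-fold lower, adjusted p = 0.00900, limma). The general isoform Cox4i1 stayed between 13.46 and 13.59 on all 6 arrays, with a change of -0.02 and an interval of -0.27 to 0.24. The sign of this small value was positive with cyclic loess (0.03) or median scaling (0.18).

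Cox6b2, the isoform of subunit 6b known from testis, went the other way. Its probe ILMN_2764551 read 8.61, 8.39 and 8.47 in hSRY-OFF and 9.60, 9.30 and 9.38 in hSRY-ON. The lowest hSRY-ON value lay above the highest hSRY-OFF value. The change was 0.94 (SE 0.132, 1.91-fold higher, adjusted p = 0.00415, limma). A second Cox6b2 probe was detected on no array. The general isoform Cox6b1 had changes of -0.06 and 0.06 on its pair of probes, with intervals from -0.33 to 0.20 and from -0.19 to 0.32.

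The isoforms of heart and skeletal muscle had lower means in hSRY-ON, but none was called. Cox8b read 8.84, 9.11 and 9.45 in hSRY-OFF and 8.50, 8.72 and 7.96 in hSRY-ON. The groups did not overlap, and the change of -0.74 had an interval of -1.30 to -0.18 and an adjusted p of 0.0573 (limma). Cox7a1 read 8.43, 8.79 and 8.95 against 8.16, 8.54 and 7.96, with an overlap, a change of -0.51 and an adjusted p of 0.101 (limma). Cox6a2 read 9.28, 9.43 and 9.49 against 9.56, 9.25 and 8.59. Here hSRY-ON replicate 1 was the highest of all 6 arrays and replicate 3 the lowest, and the change of -0.26 (adjusted p = 0.447, limma) became 0.01 without replicate 3. The general isoform Cox6a1 changed by -0.14 and -0.13, values that were 0.02 and 0.04 with median scaling.

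**Figure D3:**
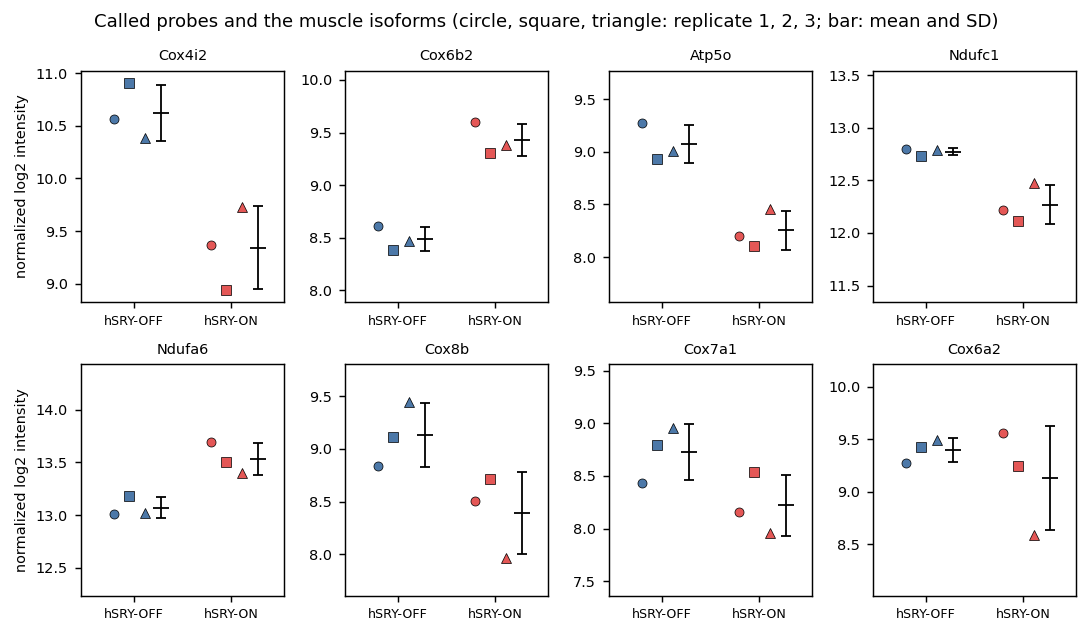
Normalized log2 intensity (vertical axes, each panel with its own range) of the 5 called probes and the 3 muscle isoforms of complex IV, by group. Circle, square and triangle are replicates 1, 2 and 3, and the bar is the mean with its SD (n = 3). The groups overlap for Cox7a1 and Cox6a2 and for no other panel.

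Lung samples can include heart muscle, from the sleeves of the pulmonary veins or from dissection. Of the cardiac markers, 19 probes for 15 genes were tested, with a median of -0.27, and Pln and Ryr2 were not detected. Of these probes 5 were called higher and 6 lower (57.9% together), where 26.9% of all tested probes were called. Nppb, called higher, was detected on no hSRY-OFF array, so the filter fixed its direction. The summed linear level of the tested cardiac probes was 12622 to 17085 in hSRY-OFF and 16081, 13046 and 9519 in hSRY-ON replicates 1, 2 and 3. The overlap of these sums rested on Nppa, the precursor of atrial natriuretic peptide, which read 5.11, 5.32 and 6.94 in hSRY-OFF and 12.32, 12.39 and 9.30 in hSRY-ON. Without Nppa, a choice made after seeing the data, the sums were 12588 to 16963 in hSRY-OFF and 10970.5, 7692 and 8886 in hSRY-ON, all lower. Other cardiac genes moved apart, with Myl2 (a ventricular light chain) at -2.59 and Myl3 at 1.12. Of the skeletal muscle markers, 7 probes were tested and none was called by limma, Actn3, Myh1, Myh4 and Pvalb were not detected, and the summed level was 930 to 1477 in hSRY-OFF and 1064 to 1194 in hSRY-ON. The part of muscle in the levels of these isoforms was not tested.

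The remaining tested probes of complex IV gave no call. Cox5a and Cox5b, which are present in every form of the enzyme, changed by -0.17 and -0.09. Ndufa4, once assigned to complex I and now to complex IV, changed by -0.12, or 0.08 with median scaling. Cox7a2l, which helps to join complexes III and IV, changed by 0.12 (-0.23 to 0.47). Cox7a2 had the widest interval, from -1.96 to 0.11, and was detected on 3 hSRY-OFF arrays and on 1 hSRY-ON array.

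Complex V, the ATP synthase, had 14 tested probes for 13 genes, of 16 probes for 14 genes, with a median of -0.09 that was 0.01 with median scaling. Atp5o, the peripheral stalk protein that confers sensitivity to oligomycin, was the one called. It read 9.27, 8.93 and 9.004 in hSRY-OFF and 8.20, 8.10 and 8.46 in hSRY-ON. The groups did not overlap, and the change was -0.82 (SE 0.151, 1.76-fold lower, adjusted p = 0.00994, limma). The catalytic subunit Atp5b read 14.71, 14.77 and 14.68 against 14.60, 14.73 and 14.71. These values overlapped, and the change of -0.04 (-0.30 to 0.21) was 0.08 with median scaling. Atp5a1, its partner in the catalytic head, changed by -0.42 with an interval of -0.95 to 0.11. The ring subunit genes Atp5g2 and Atp5g3, whose products turn with the proton flow, changed by 0.12 and -0.25.

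The symbol rule also took in genes outside the complexes. Cox4nb, now named Emc8, encodes a subunit of an endoplasmic reticulum membrane complex and gave 0.19 and -0.30 on its probes. Atp5s (now Dmac2l) changed by -0.02 and Atp5sl (now Dmac2) by 0.25. Ndufaf1, an assembly factor of complex I, read 8.14, 8.37 and 8.03 in hSRY-OFF and 9.72, 8.38 and 8.06 in hSRY-ON. A single hSRY-ON array was high, and the change of 0.54 was not called (adjusted p = 0.352, limma).

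That array, hSRY-ON replicate 1, stood apart for other chain probes as well. It lay more than 0.5 above both other hSRY-ON arrays for 10 of 79 probes (12.7%), where 7.66% of all tested probes did. Among these were a probe each of Ndufb11, Ndufb5, Ndufaf1, Cox6c, Cox7a2 and Atp5h, and 3 probes of Ndufs4. No chain probe stood above its group in this way on hSRY-ON replicate 2 or 3, against 3.64% and 5.43% of all probes. Ndufs4 encodes an accessory subunit needed for a stable complex I. Its probe ILMN_2640944 read 9.54, 9.48 and 9.84 in hSRY-OFF and 9.91, 8.71 and 8.79 in hSRY-ON. The array of replicate 1 was thus above all hSRY-OFF arrays and the other two were below them. ILMN_2900025 read 9.28, 9.23 and 9.53 against 9.57, 8.46 and 8.40, again with replicate 1 above and the other two below all hSRY-OFF arrays. The brighter Ndufs4 probe ILMN_1234521 read 12.38, 12.40 and 12.44 against 12.20, 12.07 and 12.44, without that pattern.

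**Figure D4:**
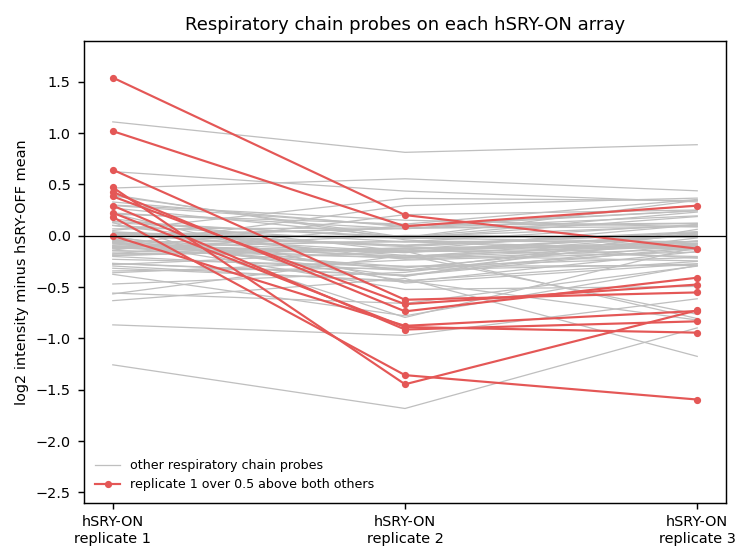
Log2 intensity minus the hSRY-OFF mean (vertical axis) of the 79 chain probes on each hSRY-ON array (horizontal axis), with a line per probe. The 10 red lines are probes for which replicate 1 lies more than 0.5 above replicates 2 and 3.

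Without hSRY-ON replicate 1, 12 of the 79 probes were called (15.2%), 1 higher and 11 lower, where 32.1% of all probes were. Cox4i2 (-1.29), Cox6b2 (0.85) and Atp5o (-0.79) were among them, and Ndufa6 and Ndufc1 were not. The others included Cox7a2, Cox6c (-0.56), Atp5h (-0.57), Atp5a1 (-0.63), Sdhb (-0.51) and the 3 Ndufs4 probes (-0.87 to -1.10), all by limma. Cox7a2, Cox6c, Atp5h and these Ndufs4 probes were picked above because replicate 1 was high. Leaving that array out lowers them by this choice, so their calls are no separate support. Cox7a2 was not detected on hSRY-ON replicates 2 and 3, and set against the lowest signal detected there its fall was at least 2.198-fold. The share called stayed under the background in both fits. Which of the hSRY-ON arrays is closer to the group cannot be read from 3 arrays. Over the chain, the median deviation from the hSRY-OFF mean was -0.01, -0.16 and -0.07 on hSRY-ON replicates 1, 2 and 3, where all probes had -0.02 to -0.03.

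Probes of the same gene mostly moved the same way. Of 11 genes with several tested probes, 8 had a single sign over all of them, and Cox4nb and Cox6b1 were among those that did not. The changes were closest between the probes of Cox6a1 (-0.14 and -0.13), of Ndufb11 (0.47 and 0.49) and of Ndufc1 (-0.50 and -0.48).

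Genes that serve the chain were taken from lists. Of 28 tested probes for electron carriers and dehydrogenases, 2 (7.14%) were called, both lower: Dhodh (-0.40), which feeds electrons from pyrimidine synthesis into the quinone pool, and Pdss1 (-0.77), an enzyme of ubiquinone synthesis. Of 26 probes for assembly factors outside the symbol rule, 2 (7.69%) were called lower, Bcs1l (-0.58, a complex III assembly factor) and Cox18 (-0.54). These 4 calls had adjusted p between 0.0343 and 0.0474 (limma). The tricarboxylic acid cycle and pyruvate dehydrogenase gave 2 of 17 (11.8%), Suclg2 (-0.81) and citrate synthase, Cs (-0.51), both lower. Import gave 1 of 18 (5.56%), the chaperone Hspd1 (-0.87), and mitochondrial ribosomal proteins 8 of 86 (9.30%), all lower, with Mrpl49 at -0.995 and Mrpl51 at -1.20 among them. The other tested probes of Cox18 (-0.26), Suclg2 (-0.40), Hspd1 (-0.80) and Mrpl51 (-0.11) were not called. Of the other Mrpl49 probes, those at -0.55 and -0.68 were called and that at -0.37 was not. Over the alternatives the called Mrpl51 probe ran from -1.42 to -0.41. Each of these shares lay below the 26.9% of all probes. In the same order, the lists had medians of -0.14, -0.13, -0.01, -0.03 and -0.17, against -0.03 for all probes, and with median scaling those of the cycle and of import were both 0.04. Single arrays moved these small counts. On leaving out an hSRY-OFF array, 0 or 1 electron carrier probes, 0 assembly factor probes and 2 to 3 ribosomal protein probes were called. The cycle had 1 call without hSRY-OFF replicate 1 or 2. Of all probes, 12.1%, 12.7% and 16.2% were called without hSRY-OFF replicates 1, 2 and 3. Without hSRY-ON replicate 1, electron carriers had 5 calls, the cycle 4 and import 3, where 32.1% of all probes were called. Without hSRY-ON replicate 2, electron carriers had 0, assembly factors and the cycle 1 each and ribosomal proteins 2. In that fit 17.8% of all probes were called.

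The carriers and kinases of the mitochondrial membranes had 3 of 9 probes called (33.3%), a median of -0.44 and the largest changes among these lists. The number called was 6 without hSRY-ON replicate 1, where 32.1% of all probes were called. With detection on all 6 arrays it was 1, where 29.4% of all probes were called. That filter takes the Ckmt2 probes out of the test, so this lower count does not mean that they lost a call. Ckmt1, the ubiquitous mitochondrial creatine kinase, read 9.12, 9.07 and 9.08 in hSRY-OFF and 10.78, 10.74 and 10.84 in hSRY-ON. The arrays within a group lay within 0.11 of each other, and the rise was 1.70 (adjusted p = 0.000495, limma). Ckmt2, the sarcomeric form known from heart and skeletal muscle, was detected on all hSRY-OFF arrays and on no hSRY-ON array. Its called probes thus passed the filter through hSRY-OFF alone, which fixed their direction. Set against the lowest signal detected in hSRY-ON, the fall was at least 2.50-fold on ILMN_2698052 and at least 1.903-fold on ILMN_2817864.

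Regulators of mitochondrial gene expression moved in both directions, with 5 of 20 probes called (25%), near the background, and a median of -0.09. Without hSRY-OFF replicate 1 or 2 the number called was 2, where 12.1% and 12.7% of all probes were called. Ppargc1a, a coactivator of mitochondrial biogenesis, read 5.84, 5.46 and 5.44 in hSRY-OFF and 6.47, 7.02 and 6.69 in hSRY-ON. The groups did not overlap, and the probe, close to background, rose by 1.15 (adjusted p = 0.00645, limma), or by 0.37 without background correction. Of 10 probes for adipocyte markers, 2 were tested. Cidea rose by 1.16 (adjusted p = 0.00534, limma) and Lipe changed by 0.23 without a call, and their summed level was 91.1 to 109.6 in hSRY-OFF and 154 to 183 in hSRY-ON. Elovl3, Fabp4, Lep and Retn were not detected, and the part of adipocytes in the Ppargc1a level was not tested. Gabpb1, a subunit of the ETS factor GABP (NRF2) that binds promoters of chain genes, read 7.83, 8.10 and 7.87 against 6.99, 6.72 and 6.96 on ILMN_2646380. It fell by 1.04 there and by 0.73 on its other probe, and its DNA-binding partner Gabpa fell by 0.73 (adjusted p = 0.0234, limma). These sizes also depended on the processing. Over the alternatives the Gabpb1 probes ran from -1.14 to -0.55 and from -0.88 to -0.32, and Gabpa from -0.89 to -0.25. The remaining call was Myc, lower at 4.94, 5.26 and 5.47 in hSRY-ON against 5.97, 6.17 and 5.82, and since 1 hSRY-ON array detected it, no size is given. Gabpa, the second Gabpb1 probe and Myc each lost the call in 3 or 4 of the alternatives tried.

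Nrf1, which binds the motif shown above, read 9.93, 10.03 and 9.86 in hSRY-OFF and 9.87, 10.22 and 9.96 in hSRY-ON, a change of 0.07. The groups overlapped, as they did for the nuclear receptor Esrra (0.10). Tfam, which packages and transcribes mitochondrial DNA, changed by -0.22 and -0.08 on its probes, and neither was called.

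**Figure D5:**
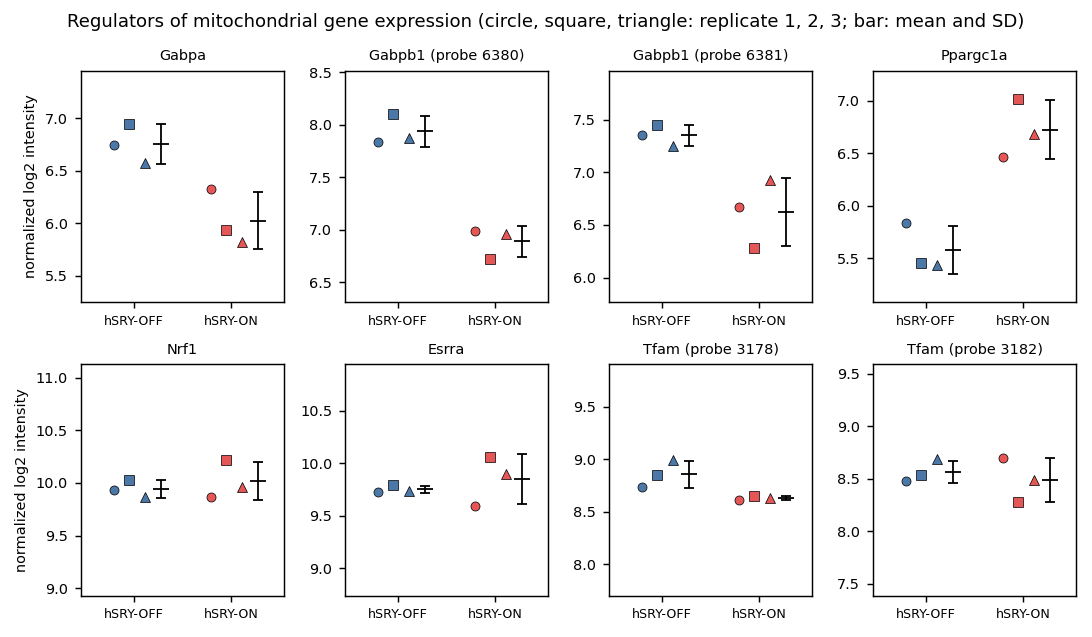
Normalized log2 intensity (vertical axes, each panel with its own range) of 8 probes for regulators of mitochondrial gene expression in hSRY-OFF (blue) and hSRY-ON (red) lungs. Circle, square and triangle are replicates 1, 2 and 3, and the bar is the mean with its SD (n = 3). Gabpa and both Gabpb1 probes are lower and Ppargc1a is higher in hSRY-ON, without overlap.

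Of the 16 chain probes that did not pass the filter, 11 were detected on no array and 5 on some. The genes without a tested probe were Atp5k, Cox7b, Cox7b2, Cox8c, Ndufab1, Ndufb2, Ndufb4, Ndufs1, Sdhd, Uqcrfs1 and Uqcrq. A probe without signal gives no statement on the gene, since most of these encode subunits that every cell with a respiratory chain needs. Sdha and the subunits encoded in mitochondrial DNA were not analysed here.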

How the data were processed

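Gene expression was measured in 6 lungs, 3 per group, on Illumina MouseRef-8 arrays, and groups and replicate numbers were taken from the sample labels. The methods describe each group as biological triplicates. The authors deposited a table with an intensity (linear, mean signal of the beads of a probe) and a detection p-value per probe and array. No background correction or normalization had been applied to the deposited intensities. The software that summarised the beads is not given in the sources used here, and the submitters' processing notes name limma. No column of another sample was used.

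The study analysed its arrays with TCC, a method for counts. Since the values are intensities, limma 3.58.1 (R 4.3.3) was used. The steps of neqc were followed: normexp background correction with the controls inferred from detection p-values, an offset of 16, quantile normalization and log2. This compresses changes near background and removes any shift of a whole array. Median intensities ranged from 177.1 to 204.0 and detected probes from 13191 to 14134 per array, and the number of arrays limits the precision. The filter kept 13841 probes, those detected (p under 0.05) by a minimum of 3 arrays. A model with the group as its only term was fitted (lmFit, eBayes), with Benjamini-Hochberg adjustment over the kept probes and a threshold of 0.05. Intervals are 95% intervals from the moderated standard error. The pipeline was checked on simulated data.

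A member gene is counted but not reported here. The members and gene lists were chosen with earlier results of these data known. Named beside the called probes of each complex were, whatever their result, isoform genes and core subunits. Genes with several tested probes were named by rule only where some were called and some not. Up to 2 called probes per list, those with the smallest p, were also named. Other genes, among them Gabpa, Myc and those moved by a single array, were named after their values were seen. A probe detected on no array of a group has a bound, from the lowest detected signal of those arrays. Symbols were matched to RefSeq, with 77 of 77 found and 5 renamed. Alternatives were other background corrections, normalizations, filters and variance models, array weights, a replicate block, a threshold of 0.01 and leaving out each array.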

Additional observations from a re-analysis of the deposited data

How the results depend on the processing

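Over 16 alternatives, Cox4i2, Cox6b2 and Atp5o were called in all 16, Ndufa6 in 10 and Ndufc1 in 9. Of the 74 uncalled chain probes, 60 were called in none and 14 in some. The number of all probes called was 3729, from 1675 to 4443 with an array left out and 1326 at an adjusted p under 0.01. The 3 chain probes called lower became 6 without background correction, 5 with an offset of 50 and 5 with detection on all 6 arrays. They became 7 with a variance trend and robust estimation, 5 with array weights and 2 to 11 with an array left out. In the same order up to array weights, 29.5%, 28.9%, 29.4%, 29.8% and 29.7% of all probes were called in either direction. The shares of chain probes called in either direction were 10.1%, 8.86%, 9.09%, 11.4% and 8.86%. The 2 called higher became 1 with the replicate block, 1 at 0.01 and 1 to 2 with an array left out. The chain median of -0.12 was 0.02 with median scaling and -0.14 to -0.04 with an array left out. The cause of these moves was not tested. The labels do not say whether the replicate numbers pair the mice. Same-numbered arrays did not deviate together (r of deviations -0.11, 0.10 and -0.09 for numbers 1, 2 and 3). Such values cannot show that the mice were unpaired. With the replicate block 2657 probes were called in all, and 3 of the chain, without Ndufa6 (adjusted p = 0.0812) and Ndufc1 (0.0621, limma). Near background the signal limits all sizes.

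No called chain probe changed sign under any alternative. Signs turned for 28 uncalled chain probes, 19 of them with median scaling, with changes of up to 0.26 in size and no call where the sign turned. Of the probes named here, those that turned with median scaling included Ndufs7 (0.06), Ndufv1 (0.02), Cox4i1 (0.18), Cox6a1 (0.02 and 0.04), Cox6b1 (0.12), Ndufa4 (0.08) and Atp5b (0.08). Cox5b turned in 1 of the 16 alternatives, to 0.10. Among those that turned with cyclic loess were Cox4i1 (0.03) and Atp5s (0.03). With an array left out, the lowest and highest values were -0.59 and 0.04 for Ndufb5, -0.09 and 0.02 for Ndufs7, -0.05 and 0.02 for Cox4i1, -0.48 and 0.01 for Cox6a2, -0.01 and 0.19 for Cox7a2l, -0.57 and 0.01 for Atp5h, -0.06 and 0.02 for Atp5s, -0.01 and 0.23 for Esrra, -0.03 and 0.15 for Nrf1 and -0.18 and 0.03 for Tfam (ILMN_2603182).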
